A study of Mus musculus with 36 samples.

Results

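Netrin 4 (Ntn4) and 7 laminin chains (Lama1, Lama3, Lama5, Lamb1, Lamb2, Lamb3 and Lamc1) were followed in intestinal organoids across 6 culture conditions. The 8 members were listed by symbol and matched to their Ensembl identifiers among the 52636 genes with a count row in every library. Ntn4 was picked by its large fall in these same libraries, so its differences between groups are given as values and not as findings. Of the 8 members, 7 passed the filter on low counts and Lama1 did not, and all counts of members called below are over the 7 laminin chains, 6 of them tested.

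Organoids were grown in Matrigel from jejunal crypts of C57BL/6 mice and were cultured for 2 days in 1 of 6 conditions with 6 libraries each, 36 in all. The controls were complete media + IgG, an organoid growth medium, and QCM + IgG, the same medium mixed with concentrated medium of quiescent mouse embryonic fibroblasts. SCM is medium of senescent fibroblasts prepared in that way and was given with IgG or with anti-Ptk7, an antibody against Ptk7, a receptor whose outer part can be shed into the medium. Wnt5a, a noncanonical Wnt ligand, was added to complete media with IgG or with anti-Ptk7. Every culture therefore held an antibody, and no library of complete media or QCM with anti-Ptk7 was analysed here. The crypts came from 6 mice, the libraries are numbered 1 to 6 in each condition, and no label says which number is which mouse. Where p-values are given they measure the spread between these libraries.

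Laminins are secreted trimers of an alpha, a beta and a gamma chain that assemble into the sheet of the basement membrane, on which epithelial cells rest. Epithelia hold on to them through integrins, dystroglycan and other receptors, and hemidesmosomes are anchored to laminin through the integrin of the alpha 6 and beta 4 subunits. Netrins are secreted proteins whose amino-terminal domains resemble those of laminin short arms, and netrin 4 is known for binding laminin gamma 1 and for interrupting laminin assembly. In the gut wall the epithelium and the mesenchyme below it both make laminin chains, and Matrigel itself supplies laminin protein, which counts of organoid RNA do not show.

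The 36 libraries held between 9581589 and 21029769 counts, with a median of 13490071, and 15497 genes were tested. The 5 epithelial markers (Epcam, Cdh1, Krt8, Krt18 and Vil1) were detected and summed to between 5480 and 19886 in a library in CPM, the counts of a gene scaled to its library's total. Of 9 mesenchymal markers 8 were not detected and the 9 summed to between 0 and 7.46 CPM, while the 3 endothelial and the 2 blood cell markers were not detected. Here and below, not detected means a mean under 0.5 CPM over the 36 libraries. SCM + IgG replicate 1 stood apart for Ntn4, with 1 count. The library numbered 1 held the highest Lama3 level in each of the 6 conditions. Fold changes without these libraries are therefore given where they matter.

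Before the levels, the stretch upstream of the start site is shown for Ntn4, the member with the large fall, and for Lamb3, the most abundant laminin chain among the members, because the study looked for binding motifs of TEAD factors at genes that changed with Ptk7. The Ntn4 window is chr10:93640799-93641048 on the plus strand and the Lamb3 window, at the upstream one of its 2 start sites in the table, is chr1:193301744-193301993 on the plus strand, both from RefSeq on GRCm38.p6 and ending at the base before the start. The gene spans printed further on are those of GENCODE, which begin upstream of these RefSeq starts, so both windows lie inside them.

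Ntn4: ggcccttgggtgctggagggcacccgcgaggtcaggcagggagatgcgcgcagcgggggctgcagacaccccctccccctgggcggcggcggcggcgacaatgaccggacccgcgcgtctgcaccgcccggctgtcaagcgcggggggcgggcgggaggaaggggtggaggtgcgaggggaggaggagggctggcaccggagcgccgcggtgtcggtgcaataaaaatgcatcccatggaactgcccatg

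Lamb3: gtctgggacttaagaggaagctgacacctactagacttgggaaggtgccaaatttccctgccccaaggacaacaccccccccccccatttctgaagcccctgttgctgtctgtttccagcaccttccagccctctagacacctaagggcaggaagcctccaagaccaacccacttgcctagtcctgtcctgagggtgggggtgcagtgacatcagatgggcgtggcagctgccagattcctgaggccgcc

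Capitals were reserved for the TEAD letters GGAATG and the AP-1 letters TGANTCA, read on both strands, and neither of these windows holds them. The Ntn4 window is 73.2% G and C and the Lamb3 window 58.8%. The same 250 bases were read for Lama5, Lamb1 and Lamb2, with no match, and for the other Lamb3 start site, whose window holds GGAATG on the strand opposite to the gene. Over the 32851 promoter windows of this length in the table, 12.6% hold the TEAD letters and 6.75% the AP-1 letters. These are descriptions of letters in short windows.

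Levels between genes were compared only as CPM per kilobase of coding length. In complete media the beta 3 chain Lamb3 was the most abundant, with 42.0 ± 3.89 CPM per kb (SD, n = 6), and the gamma 1 chain Lamc1 reached 9.45 ± 1.53. Ntn4 followed with 8.63 ± 1.11, nearly the level of Lamc1. Lamb2, Lama3, Lama5 and Lamb1 lay under 1 CPM per kb, with means of 0.663, 0.423, 0.308 and 0.0652, so the alpha chains were scarce beside Lamb3.

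The order changed with the medium. Among the 7 detected members Lama3 ranked 5 in complete media and 3 in SCM and in Wnt5a with IgG, with 7.12 ± 3.14 and 16.99 ± 11.2 CPM per kb. Ntn4 ranked 3 in complete media and 4 in those 2 media, at 1.15 ± 0.724 and 2.78 ± 1.38.

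**Figure D1:**
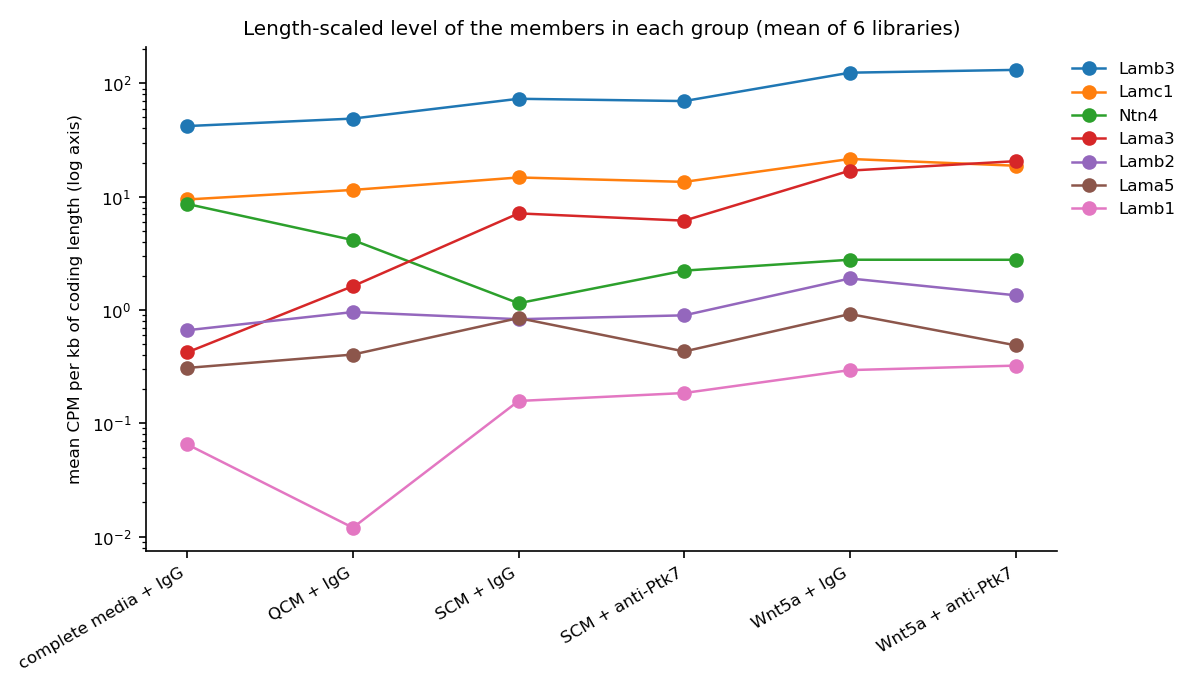
Mean CPM per kb of coding length (log axis) of Ntn4 and the 6 tested laminin members in the 6 groups of 6 libraries; lines only join the groups of a gene. Ntn4 goes from 8.63 in complete media to 1.15 in SCM while Lama3 goes from 0.423 to 7.12, so the lines cross, and Lamb3 lies above the other members in every group.

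Per library, the ratio of Lama3 to Lamb3 in CPM per kb had a median of 0.00786 in complete media (0.0034 to 0.0239), 0.035 in QCM (0.0166 to 0.0509), 0.0845 in SCM (0.0563 to 0.178) and 0.119 in Wnt5a (0.0901 to 0.173). Every SCM and Wnt5a library lay above every complete media and QCM library in this ratio. With anti-Ptk7 the median was 0.0586 in SCM (0.0428 to 0.203) and 0.124 in Wnt5a (0.0797 to 0.227), and these ranges overlapped those of the matching IgG libraries. Lama3 therefore stayed well under its beta partner in RNA per length in all 36 libraries.

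Ntn4 (ENSMUSG00000020019, chromosome 10, 93640681 to 93747207, plus strand, protein coding, GRCm38) had its highest level in complete media, where the 6 libraries ran from 14.2 to 19.8 CPM with a median of 15.3. In QCM they ran from 5.92 to 11.9 with a median of 7.08, and in SCM + IgG from 0.0651 to 3.56 with a median of 2.60. In Wnt5a + IgG the range was 1.16 to 8.77 with a median of 5.53. No library of QCM, SCM or Wnt5a reached the lowest complete media library, and the highest SCM + IgG library lay below the lowest QCM library.

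As log2 fold changes against complete media, Ntn4 was at −1.06 ± 0.37 (SE) in QCM, −2.90 ± 0.40 in SCM and −1.62 ± 0.38 in Wnt5a, which correspond to 2.08, 7.46 and 3.08 times lower levels. SCM gives the largest of these, and it was −2.65 without SCM + IgG replicate 1 and −3.55 with voom and TMM scaling. Against QCM the SCM value was −1.84 ± 0.40, and it was −1.57 without SCM + IgG replicate 1 and −2.47 with voom and TMM scaling. These contrasts share libraries with each other and use those that chose the gene, so they carry no test. In bulk RNA, fewer cells of a type that makes a transcript and less of it in each cell cannot be told apart.

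With anti-Ptk7, Ntn4 ran from 2.14 to 5.33 CPM in SCM, with a median of 4.82, and from 3.39 to 9.91 in Wnt5a, with a median of 4.37. The mean in SCM was 4.19 ± 1.30 with the antibody and 2.16 ± 1.36 without it (SD, n = 6), a log2 difference of 0.95 ± 0.40, and the ranges overlapped. The difference was 0.69 without SCM + IgG replicate 1 and 1.57 with voom and TMM scaling. In Wnt5a the means were 5.23 ± 2.39 and 5.23 ± 2.60.

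Against QCM, Ntn4 differed by −0.89 ± 0.38 in SCM + anti-Ptk7, where the highest library (5.33 CPM) lay below the lowest QCM library (5.92 CPM). In Wnt5a + anti-Ptk7 it differed by −0.58 ± 0.38 with overlapping ranges. Since the gene was chosen from these libraries, these values carry no test either.

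**Figure D2:**
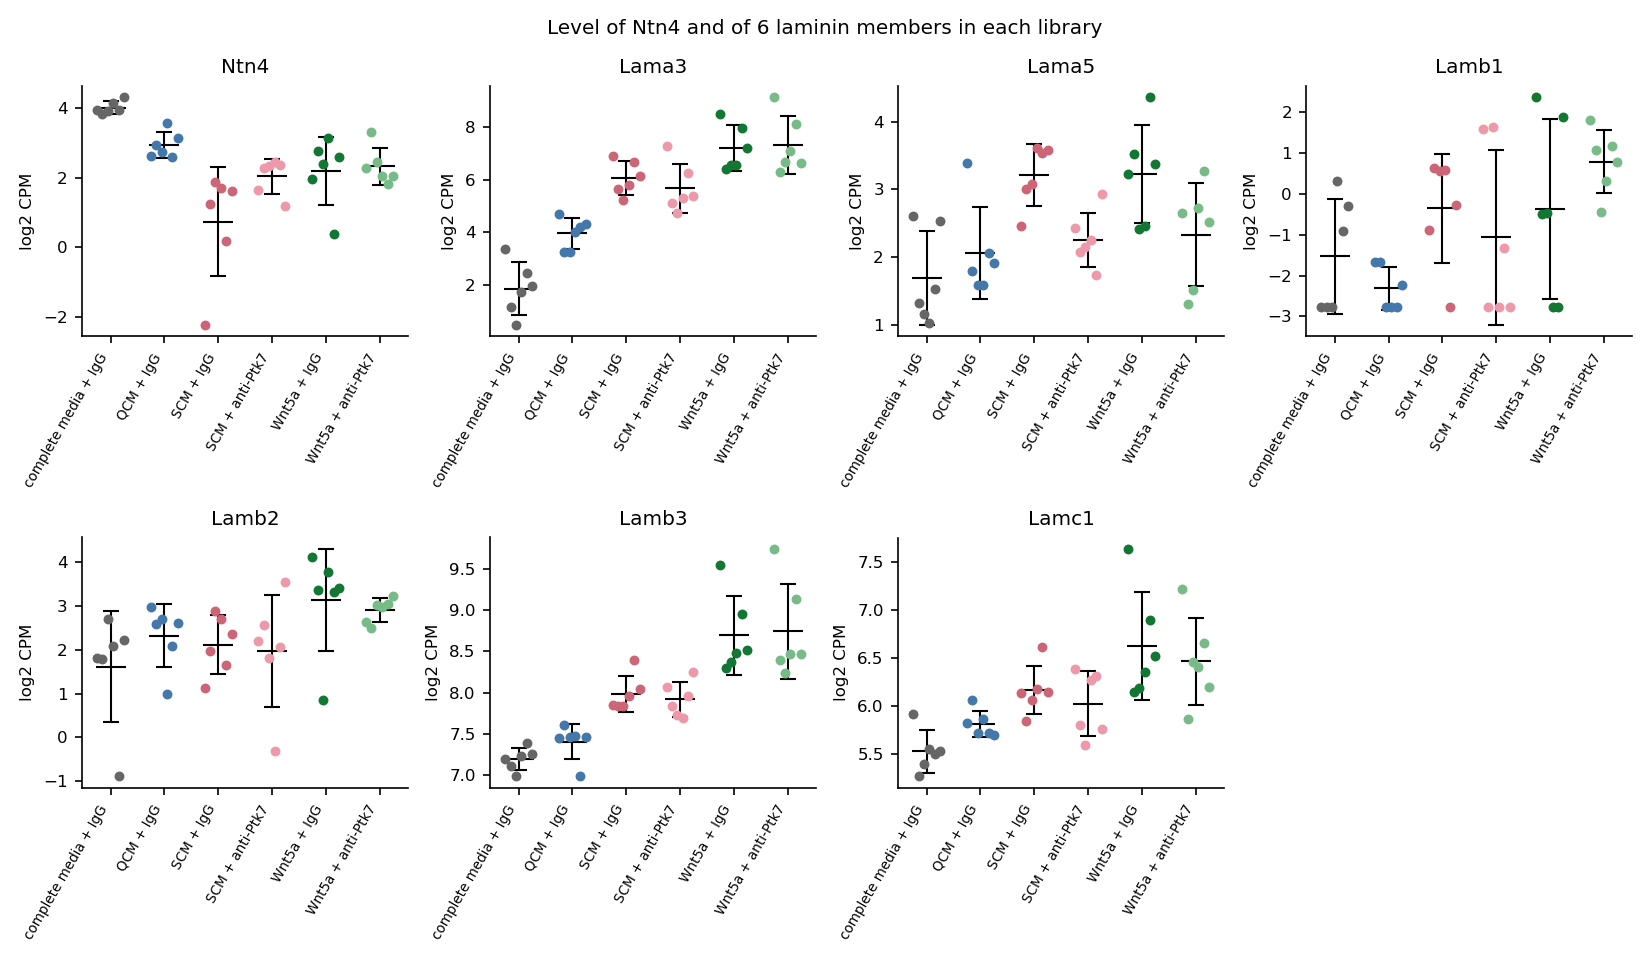
Log2 CPM of Ntn4 and the 6 tested laminin members in each of the 36 libraries (points) by group, with the group mean and SD (bars, n = 6); the vertical scale differs between panels. Ntn4 is highest in all 6 complete media libraries, from 14.2 to 19.8 CPM, whereas Lama3 there, from 1.25 to 10.2 CPM, lies below every SCM and Wnt5a library.

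Of the alpha chains, Lama1, the chain of the laminin made by early embryos, had 0 counts in all 36 libraries. Lama3 (ENSMUSG00000024421), an alpha chain of epithelia such as the epidermis, had the largest called changes. It ran from 1.25 to 10.2 CPM in complete media with a median of 3.46, from 9.38 to 25.8 in QCM with a median of 17.3, and from 37.3 to 119 in SCM + IgG with a median of 63.0. In Wnt5a + IgG it ran from 84.9 to 367 with a median of 121. SCM and Wnt5a libraries lay above all complete media and QCM libraries, while complete media and QCM overlapped.

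Lama3 rose 17.2-fold in SCM, by 4.10 ± 0.56 on the log2 scale (adjusted p = 5.1e-06), and 41.0-fold in Wnt5a, by 5.36 ± 0.58 (adjusted p = 4.0e-08). In QCM it was at 1.97 ± 0.56 with an adjusted p of 0.104, and it was called there by DESeq2 (adjusted p = 0.0171), with only the groups compared (adjusted p = 0.0216), with the replicate number as a block (adjusted p = 5.2e-08) and, at 2.23, without the libraries numbered 1 (adjusted p = 0.0055). SCM exceeded QCM by 2.13 ± 0.49 (adjusted p = 0.0216), but without QCM + IgG replicate 2, 3 or 4 or SCM + IgG replicate 1 the value was 2.02, 2.02, 2.15 or 1.95 and the adjusted p lay between 0.0561 and 0.0814. Where no other tool is named, these are from edgeR's quasi-likelihood test with Benjamini-Hochberg adjustment over 15497 genes, and called means an adjusted p under 0.05 with a fold change over 1.5.

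Lama5 (ENSMUSG00000015647, chromosome 2, 180176373 to 180225859, minus strand), the alpha chain of most adult epithelial basement membranes, was expressed at a low level. Its complete media libraries ran from 1.90 to 5.95 CPM with a median of 2.54, and those of QCM from 2.85 to 10.3 with a median of 3.48. In SCM + IgG they ran from 5.34 to 12.05 with a median of 9.90, and in Wnt5a + IgG from 5.18 to 20.3 with a median of 9.72. The upper complete media libraries overlapped the lower SCM and Wnt5a libraries. Lama5 rose by 1.46 ± 0.37 in SCM (adjusted p = 0.0071) and by 1.58 ± 0.37 in Wnt5a (adjusted p = 0.0018, edgeR's quasi-likelihood test).

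Of the beta chains, Lamb3 (ENSMUSG00000026639, chromosome 1, 193207699 to 193343878, plus strand) was abundant in every library. It ran from 127 to 167 CPM in complete media with a median of 149, from 127 to 195 in QCM with a median of 177, and from 228 to 338 in SCM + IgG with a median of 239. In Wnt5a + IgG it ran from 314 to 749 with a median of 361. Each SCM and Wnt5a library lay above all libraries of complete media and QCM. Lamb3 rose by 0.80 ± 0.20 in SCM (adjusted p = 0.0059) and by 1.56 ± 0.20 in Wnt5a (adjusted p = 6.9e-07, edgeR's quasi-likelihood test).

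Lamb2 (ENSMUSG00000052911, chromosome 9, 108479736 to 108490530, plus strand), a beta chain known from muscle and kidney basement membranes, did not follow this pattern in SCM. Its levels ran from 0.390 to 6.34 CPM in complete media and from 2.02 to 7.29 in SCM + IgG, a difference of 0.33 ± 0.47. In Wnt5a + IgG they ran from 1.64 to 17.3, and 5 of the 6 libraries lay above all complete media libraries. Lamb2 rose by 1.51 ± 0.46 in Wnt5a by edgeR's quasi-likelihood test (adjusted p = 0.0163), but without Wnt5a + IgG replicate 1 the value was 1.31 with an adjusted p of 0.055, and without all libraries numbered 1 it was 1.30 with an adjusted p of 0.0761. A minimum of 10 counts in every library left Lamb2 untested.

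Lamb1 (ENSMUSG00000002900, chromosome 12, 31265234 to 31329644, plus strand), the beta chain common in mesenchyme and the endothelium, lay near the limit of these libraries. It had counts in 24 of 36 libraries, at most 2 in any QCM library, and group means between 0.0659 CPM in QCM and 1.78 CPM in Wnt5a + anti-Ptk7. Its values within a group ranged from 0 upward in 5 of the 6 groups.

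The gamma chain among the members, Lamc1 (ENSMUSG00000026478, chromosome 1, 153218922 to 153332786, minus strand), is shared by most laminin trimers and binds netrin 4. It ran from 38.3 to 60.4 CPM in complete media with a median of 45.6, from 51.6 to 66.7 in QCM with a median of 54.6, and from 57.4 to 98.2 in SCM + IgG with a median of 70.5. In Wnt5a + IgG it ran from 70.7 to 199 with a median of 86.5, above all complete media libraries, while 1 complete media library overlapped SCM. Lamc1 rose by 0.64 ± 0.20 in SCM (adjusted p = 0.0343) and by 1.19 ± 0.21 in Wnt5a (adjusted p = 7.4e-05, edgeR's quasi-likelihood test). The SCM call was lost without SCM + IgG replicate 1, 4 or 5 or complete media + IgG replicate 2, 3, 4, 5 or 6, with values from 0.53 to 0.65 and adjusted p of up to 0.104, and with voom and TMM scaling, at 0.63 (adjusted p = 0.0505). The chains Lama2, Lama4 and Lamc3 were not detected.

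Counted together, 4 of 7 laminin members were called higher in SCM (Lama3, Lama5, Lamb3 and Lamc1) and 5 of 7 in Wnt5a (those and Lamb2), against 4.96% and 8.29% of all genes tested, and no member chain was called lower, against 1.12% and 1.88%. The median log2 difference of the 6 tested chains was 1.01 in SCM and 1.57 in Wnt5a, and that of all genes 0.01 in each. In QCM no chain was called, against 0.355% of genes called higher, with a median of 0.33 for the chains and 0.02 for all genes. These 3 comparisons share the complete media libraries. The summed epithelial markers moved as well, from 5480 to 6965 CPM in complete media to between 7806 and 11203 in SCM and between 8743 and 15375 in Wnt5a. The enterocyte markers Alpi, Fabp1 and Apoa1 summed to 471 to 756 CPM in complete media, 1026 to 1297 in SCM and 564 to 1023 in Wnt5a, with 3 and 2 of the 3 called higher. Of the Paneth markers Lyz1, Mmp7 and Ang4, 2 of 3 (Mmp7 and Ang4) were called higher in each medium, with sums of 560 to 701, 602 to 868 and 388 to 676 CPM. Lyz1 was called in neither, at log2 differences of 0.15 for SCM and −0.35 for Wnt5a. Its Wnt5a mean of 434 CPM lay below the complete media mean of 552 CPM. Apoa1, the enterocyte marker not called for Wnt5a, was at −0.04 there, with means of 299 and 309 CPM. The tuft markers Dclk1 and Trpm5 summed to 2.40 to 6.72, 3.21 to 7.42 and 7.35 to 18.02 CPM, and both were called higher in Wnt5a. No goblet or enteroendocrine marker was called. The part of these markers in the laminin results was not tested.

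**Figure D3:**
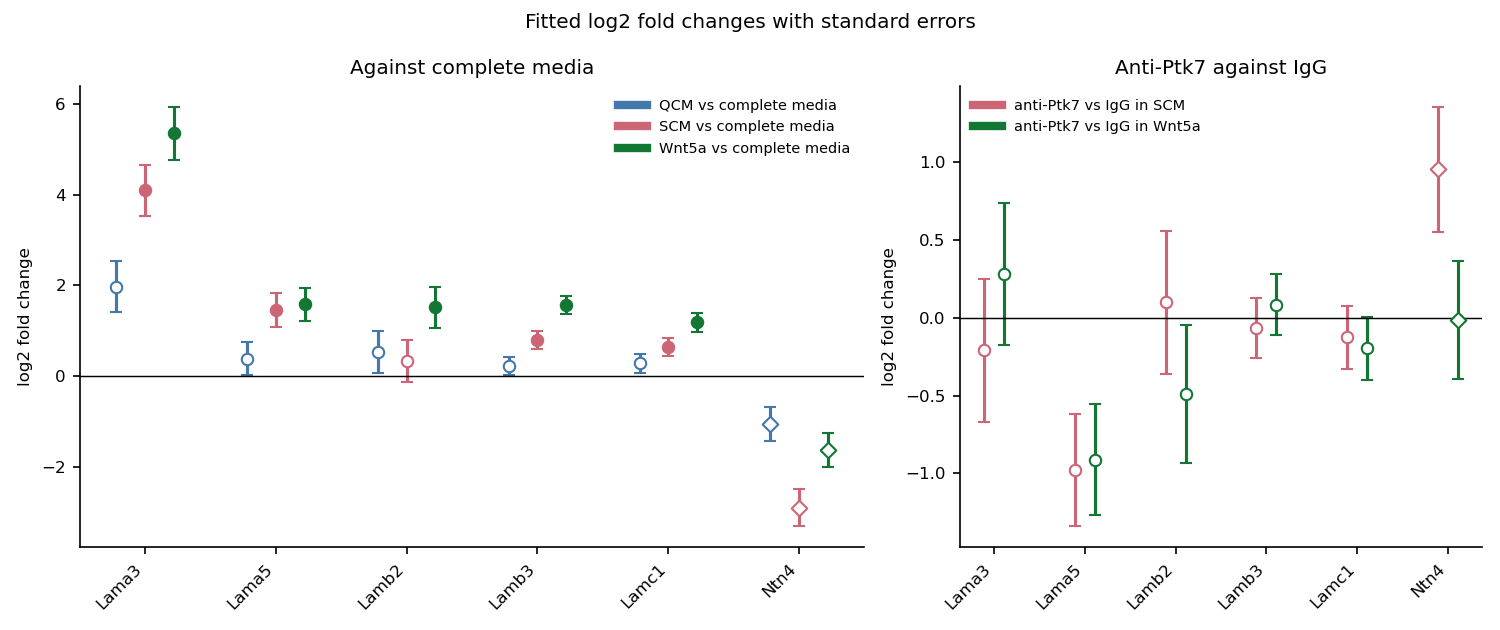
Fitted log2 fold changes with their SE for Ntn4 and 5 laminin members, against complete media (left) and for anti-Ptk7 against IgG (right). Filled circles passed an adjusted p under 0.05 with a fold change over 1.5, and open circles did not. Ntn4 (diamonds) was in the fit, but no test of it is quoted, because it was chosen from these libraries. Lamb1, which rests on few counts and was at −2.46 in QCM, is not drawn. The 5 chains drawn lie above 0 on the left and Ntn4 lies below, from −1.06 in QCM to −2.90 in SCM.

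Wnt5a and SCM were set against each other directly. Lamb3 was 0.76 ± 0.20 higher in Wnt5a on the log2 scale by edgeR's quasi-likelihood test (adjusted p = 0.0301) and was the 1 chain of 7 called, against 0.297% of all genes. Without Wnt5a + IgG replicate 1, whose 749 CPM was the highest of its group, the difference was 0.55 and the adjusted p 0.152, and leaving out any of SCM + IgG replicates 1, 2, 4 and 6 or Wnt5a + IgG replicate 5 also took the adjusted p to between 0.0579 and 0.0824, at values from 0.72 to 0.77. Lama3 and Lamb2 differed by 1.25 ± 0.46 and 1.19 ± 0.45 with overlapping libraries and adjusted p of 0.124 and 0.137. With the replicate number as a block, Lama3 was called, at 1.13 (adjusted p = 8.6e-05). Of the 3 enterocyte markers 1 was called lower in Wnt5a than in SCM, against 0.394% of all genes. Their median was −0.41, and their part was not tested.

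SCM against QCM compares the media of senescent and quiescent fibroblasts. Per the paper's methods these also differed in earlier serum, in treatment and in culture time, which cannot be told apart from senescence here. Lama3 was the 1 chain of 7 called higher, against 0.761% of all genes, and the median of the 6 tested chains was 0.83. The Paneth marker Mmp7 was also called higher (0.68), and 2 of the 3 Paneth markers lay above 0. The summed epithelial markers ran from 6609 to 8015 CPM in QCM and from 7806 to 11203 in SCM. The part of these markers was not tested. Lamb3 differed by 0.58 ± 0.20, and every SCM + IgG library lay above every QCM library, from 228 CPM against 195 CPM at the nearest, but the adjusted p was 0.111 and the fold change 1.495. Lamb3 was called with only the groups compared in the fit, at 0.59 (adjusted p = 0.0158), and without the libraries numbered 1, at 0.61 (adjusted p = 0.0184). Lama5 differed by 1.07 ± 0.36 (adjusted p = 0.107, both by the edgeR test). Without QCM + IgG replicate 1, which had the highest Lama5 level of its group, the Lama5 value was 1.49 (adjusted p = 0.0282) and passed, as it did with the replicate number as a block, at 1.18 (adjusted p = 0.0170).

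Anti-Ptk7 against IgG asks what blocking Ptk7, including its shed form in the medium, does to these levels. In SCM no chain of 7 was called, against 0.581% of genes called higher and 0.645% lower, and 2 of the 6 tested chains had a value above 0, with a median of −0.10. Lama3 ran from 26.3 to 157 CPM with the antibody, with a median of 40.4, and differed from SCM + IgG by −0.21 with a 95% interval from −1.15 to 0.73. SCM + anti-Ptk7 replicate 1 held its highest level, and without it the value was −0.74 (adjusted p = 0.426, edgeR's quasi-likelihood test), while without SCM + IgG replicate 1 it was −0.011. The interval of Lamb3 was narrower, from −0.47 to 0.33, and that of Lamc1 ran from −0.54 to 0.29.

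Lama5 had the largest difference of a chain in both antibody contrasts in the edgeR fit, which was not so in every other fit. With anti-Ptk7 its libraries ran from 3.18 to 7.46 CPM in SCM with a median of 4.44 and from 2.34 to 9.47 in Wnt5a with a median of 5.85, against medians of 9.90 and 9.72 with IgG. The log2 differences were −0.98 ± 0.36 (adjusted p = 0.14) and −0.91 ± 0.36 (adjusted p = 0.183, edgeR's quasi-likelihood test), the ranges overlapped in both media, and neither passed the threshold. With the replicate number as a block, Lama5 was called lower in SCM, at −1.004 (adjusted p = 0.0472), and no label says whether the numbers are mice. The enterocyte marker Alpi was called lower with anti-Ptk7 in both media (−0.585 in SCM and −0.72 in Wnt5a). The Paneth marker Lyz1 was called lower in Wnt5a (−0.63). The enterocyte marker Fabp1 went the other way, with means of 676 CPM against 518 in SCM and 472 against 390 in Wnt5a. So did the Paneth marker Ang4, at 116 against 88.8 in Wnt5a. Of the 3 enterocyte and the 3 Paneth markers 1 each lay above 0 in either medium. The part of these markers was not tested. The Lama5 medians with the antibody lay between those of QCM (3.48) and of the IgG groups.

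In Wnt5a no chain of 7 was called with anti-Ptk7 either, against 0.452% of genes called higher and 0.432% lower, and the median of the 6 tested chains was −0.06. Lama3 ran from 78.1 to 562 CPM with a median of 118 and differed by 0.28, with a 95% interval from −0.65 to 1.21. Lamb3 ran from 303 to 855 CPM with a median of 354 and differed by 0.08, with an interval from −0.31 to 0.48. Wnt5a + anti-Ptk7 replicate 1 held the highest level of both, and without it the values were −0.31 and −0.19. Whether the antibody effect differed between the media was tested as an interaction in edgeR. No chain and 0% of the genes in either direction passed. In that edgeR test 602 of 15497 genes had an unadjusted p under 0.05, a share that is itself below 0.05. DESeq2 also called no chain there.

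The anti-Ptk7 libraries were also set against QCM. In SCM + anti-Ptk7, Lama3 was the 1 chain of 7 called higher, by 1.92 ± 0.49 (adjusted p = 0.0098), against 1.92% of all genes, and none was called lower, against 1.14%. Its lowest library (26.3 CPM) lay above the highest QCM library (25.8 CPM). Without SCM + anti-Ptk7 replicate 1 the value was 1.40 with an adjusted p of 0.065, and with voom and TMM scaling it was 1.72 with an adjusted p of 0.0542. Lamb3 differed by 0.51 ± 0.20 with no overlap and an adjusted p of 0.0921 (edgeR's quasi-likelihood test). Of the cell type markers Ascl2 (0.59), Ang4 (0.74) and Fabp1 (0.71) were called higher in this contrast and Lyz1 (−0.60) lower. Of the 4 crypt base, 3 Paneth and 3 enterocyte markers 2, 2 and 1 lay above 0. The part of these markers was not tested.

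In Wnt5a + anti-Ptk7, 4 chains of 7 were called higher than in QCM and none lower, against 8.78% and 5.92% of all genes. Lama3 differed by 3.66 ± 0.51 (adjusted p = 1.6e-06), Lamb3 by 1.43 ± 0.20 (adjusted p = 1.4e-06) and Lamc1 by 0.71 ± 0.20 (adjusted p = 0.0068, edgeR's quasi-likelihood test). Without Wnt5a + anti-Ptk7 replicate 1, Lamc1 differed by 0.52 and was under the fold limit. Lamb1 was called on few reads, with 7 to 37 counts a library against 0 to 2 in QCM, and its fitted size is not quoted. Lama5 and Lamb2 differed by 0.28 ± 0.36 and 0.50 ± 0.45 and were not called. In the same contrast the epithelial markers Cdh1 (0.95), Krt8 (0.87) and Krt18 (0.98) and the tuft markers Dclk1 (2.02) and Trpm5 (1.70) were called higher, and the Paneth marker Lyz1 (−1.18) and the enterocyte marker Apoa1 (−1.02) lower, by edgeR's quasi-likelihood test. Of the 3 enterocyte markers 1 lay above 0, as did 2 of the 3 Paneth markers. Fabp1 had a mean of 472 CPM against 413 in QCM, and Ang4 of 116 against 77.7. The summed epithelial markers ran from 6609 to 8015 CPM in QCM and from 8816 to 19886 in Wnt5a + anti-Ptk7. The part of these markers was not tested.

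The groups were put in order by their mean log2 CPM. For Lama3 it was highest in Wnt5a + anti-Ptk7 and Wnt5a + IgG, then SCM + IgG, SCM + anti-Ptk7, QCM and complete media, and of the neighbours in that order SCM + anti-Ptk7 and QCM alone were called different. For Lamb3 the order was the same and Wnt5a + IgG and SCM + IgG alone were called different. For Lamc1, Lama5, Lamb1 and Lamb2 no neighbours were called different. For Ntn4 the order began with complete media and QCM and ended with SCM + anti-Ptk7 and SCM + IgG, as a description.

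Over the 36 libraries the log2 CPM of Lama3 and Lamb3 had a Pearson correlation of 0.89, which was 0.67 for the deviations from the group means. Lamb3 and Lamc1 correlated at 0.89, and at 0.77 within groups. Lamb2 and Lama3 correlated at 0.35, and at −0.08 within groups. Ntn4 and Lama3 correlated at −0.63, and at −0.42 within groups. The points share libraries, sequencing depth and the 6 group means, so these are descriptions. SCM + IgG replicate 1 had the lowest Ntn4 and the highest Lama3 level of its group. No correlation was computed without the libraries numbered 1, so how far these values rest on them is not known.

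**Figure D4:**
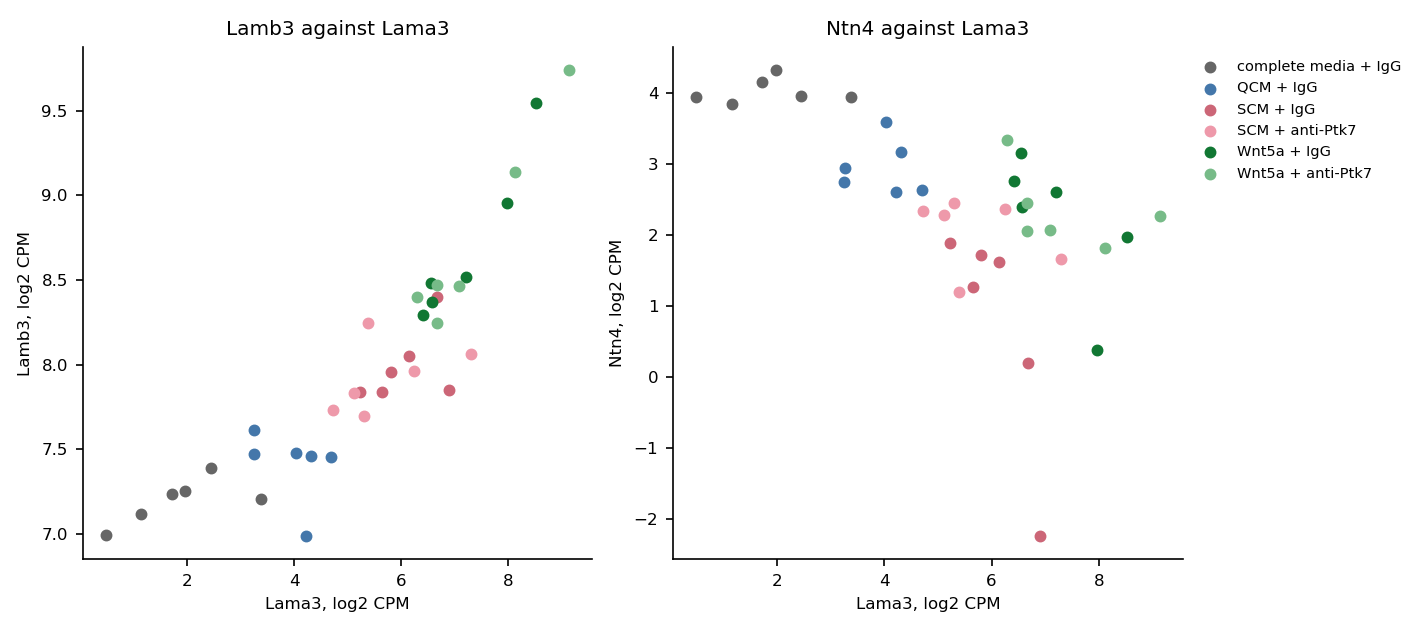
Log2 CPM of Lamb3 (left) and Ntn4 (right) against that of Lama3 in the 36 libraries, coloured by group. Lamb3 is high where Lama3 is high (r = 0.89), while Ntn4 is high where Lama3 is low (r = −0.63), with SCM + IgG replicate 1 far below the rest at 0.0651 CPM of Ntn4.

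The genes most like the members were taken as the 5 with the highest Pearson correlation over the 36 libraries. For Lama3 these were Clu (0.98), a secreted chaperone, Cwh43 (0.98), F3 (0.98), the initiator of blood coagulation, Foxq1 (0.97), a forkhead transcription factor, and Capn2 (0.97), a calcium-dependent protease. For Lamb3 they were Fam129b (0.96), Plin2 (0.95), a lipid droplet protein, Atp10b (0.95), Mmp15 (0.94), a membrane-bound metalloprotease, and Itgb4 (0.94), the integrin subunit that binds the laminin of which Lamb3 is a chain.

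For Lamc1 they included Pacsin3 (0.93), which acts in membrane bending, Lasp1 (0.92), an actin-binding protein, Endod1 (0.91) and Fam214b (0.91). The highest for Ntn4 were lower, with Tbc1d4 (0.79), a regulator of glucose transporter traffic, Cpn1 (0.79), Slc39a8 (0.78), a metal ion transporter, Papss1 (0.78), which makes the sulfate donor of the cell, and Mavs (0.78), an adaptor of RNA sensing. Taken by deviations from the group means, 4 of the 20 genes taken remained among the 5 highest. The 5 of Ntn4 were not among them, at ranks of 12 to 246, and with Spearman's rho they ranked from 9 to 157.5.

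Receptors of laminin were read from a list of 10 genes, all tested, of which 9 were detected and Itga7 was not. In SCM 1 of them, Itgb4, was called higher, by 0.76 ± 0.25 (adjusted p = 0.0396), against 4.96% of all genes, and the median of the list was 0.36. In Wnt5a 6 were called higher and none lower, against 8.29% and 1.88% of all genes, with a median of 0.71. The median of all genes was 0.01 in each. They were Itgb4 (1.38 ± 0.25), Itga2 (0.95 ± 0.20), a subunit of a collagen and laminin receptor, Itga3 (0.77 ± 0.19) and Itgb1 (0.67 ± 0.12), which pair as a laminin receptor, Sdc1 (0.76 ± 0.14), a syndecan, and Cd151 (0.60 ± 0.18), a tetraspanin bound to laminin-binding integrins. Without Wnt5a + IgG replicate 1, Itgb1 and Cd151 were at 0.55 and 0.52 and under the fold limit, and leaving out Wnt5a + IgG replicate 2 or 6 or complete media + IgG replicate 1 or 3 also took Cd151 under it, to between 0.52 and 0.57. Cd151 was also under it with upper-quartile or library-size scaling, no filter on low counts or voom with quantile normalization, at 0.55 to 0.58.

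Itgb4 itself ran from 124 to 225 CPM in complete media with a median of 165, from 218 to 410 in SCM + IgG with a median of 263, and from 292 to 804 in Wnt5a + IgG with a median of 343. The Wnt5a and complete media libraries did not overlap, while SCM and complete media did. Its SCM call was lost without SCM + IgG replicate 1, 5 or 6 or complete media + IgG replicate 2, 3, 4, 5 or 6, with values from 0.61 to 0.77 and adjusted p of up to 0.119. In Wnt5a + anti-Ptk7 against QCM, 6 receptors were called higher, namely Itga2, Itga6, Itgb1, Itgb4, Cd151 and Sdc1, against 8.78% of all genes, with a median of 0.70 over the list and 0.03 over all genes. Without Wnt5a + anti-Ptk7 replicate 1, Itga6, Cd151 and Sdc1 were at 0.43, 0.45 and 0.58 and under the fold limit, as was Cd151 with voom and quantile normalization, at 0.58.

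The other basement membrane genes were less uniform. Of 15 listed, 10 were tested, and Col4a4, Col4a5, Col4a6, Col15a1 and Sparc were not detected. In SCM, Col18a1, Col4a2 and Agrn were called higher and Smoc2 lower, against 4.96% and 1.12% of all genes. In Wnt5a, Col18a1, Col4a1, Col4a2, Nid1 and Agrn were called higher and Hspg2 and Smoc2 lower, against 8.29% and 1.88%. The medians of the list were 0.16 in SCM and 0.76 in Wnt5a, beside 0.01 over all genes in each.

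Col18a1, the collagen whose end fragment is endostatin, had the largest change of that list. It ran from 0.834 to 3.38 CPM in complete media, from 2.00 to 5.95 in QCM, from 6.06 to 22.02 in SCM + IgG and from 20.8 to 81.1 in Wnt5a + IgG. It rose by 2.75 ± 0.48 in SCM (adjusted p = 1.6e-04) and by 4.36 ± 0.50 in Wnt5a (adjusted p = 9.0e-08), and SCM exceeded QCM by 2.08 ± 0.45 (adjusted p = 0.015, edgeR's quasi-likelihood test). Without QCM + IgG replicate 2, 3 or 4 the last value was 1.99, 1.98 or 2.00 with adjusted p of 0.0543, 0.0600 and 0.0518, and with voom it was 1.96 (quantile) or 2.02 (TMM) with adjusted p of 0.0545 and 0.0516. All SCM libraries lay above all complete media and QCM libraries.

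The collagen IV chains Col4a1 and Col4a2, which form the other network of the basement membrane, rose by 2.41 ± 0.55 and 2.30 ± 0.48 in Wnt5a, and Nid1, which links that network to laminin, by 1.62 ± 0.56. In SCM, Col4a2 rose by 1.41 ± 0.48 and Agrn, a heparan sulfate proteoglycan, by 0.63 ± 0.21. The Col4a2 call was lost without SCM + IgG replicate 1, 4, 5 or 6 or complete media + IgG replicate 2, 3, 4 or 6, with values from 1.17 to 1.43 and adjusted p of up to 0.148, and with no filter or only the groups compared (adjusted p = 0.0601 and 0.0640). The Agrn call was lost without any SCM + IgG replicate but 3 or complete media + IgG replicate 2, 3, 5 or 6, with values from 0.57 to 0.65 and adjusted p of up to 0.0978, and with no filter (adjusted p = 0.0536). Nid1 in Wnt5a was lost without Wnt5a + IgG replicate 1, at 1.09 (adjusted p = 0.19), or complete media + IgG replicate 2, 3, 4 or 6, at 1.41 to 1.56.

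On the falling side, Smoc2, a secreted calcium-binding protein expressed by crypt base cells, was called at −0.77 ± 0.17 in SCM and −0.67 ± 0.17 in Wnt5a. Its libraries ran from 1118 to 1392 CPM in complete media, from 503 to 881 in SCM + IgG and from 461 to 976 in Wnt5a + IgG, with no overlap with complete media. Hspg2, the proteoglycan perlecan, fell by 1.33 in Wnt5a (SE 0.44) at a low level, from a mean of 5.94 CPM to 2.35 CPM. In Wnt5a, Smoc2 was at −0.56 and under the fold limit without Wnt5a + IgG replicate 1, and Hspg2 was at −1.17, −1.19 or −1.21 with adjusted p between 0.0561 and 0.0712 without Wnt5a + IgG replicate 1 or 4 or complete media + IgG replicate 6. The Lgr5, Olfm4, Ascl2 and Axin2 sum of the crypt base ran from 510 to 880 CPM in complete media, 545 to 1028 in SCM + IgG and 466 to 1097 in Wnt5a + IgG, and its part in these values was not tested.

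**Figure D5:**
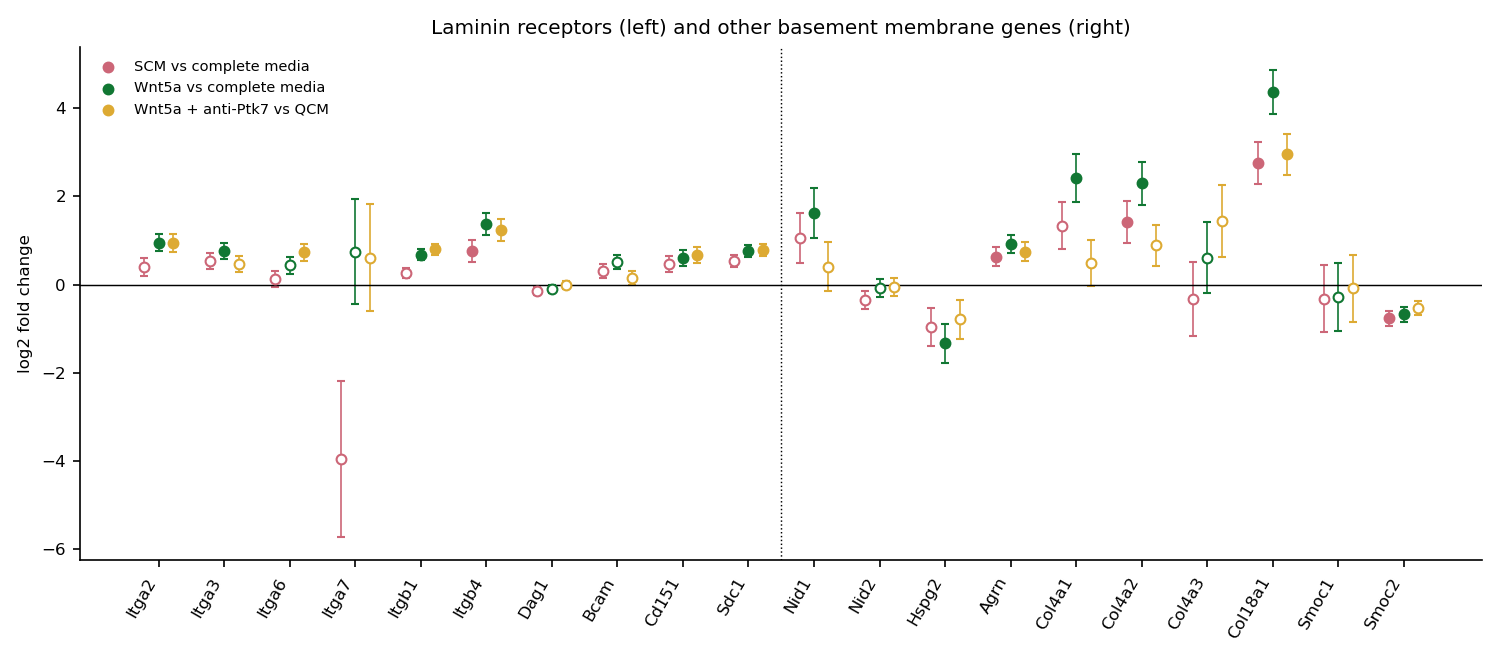
Fitted log2 fold changes with their SE for 10 laminin receptors (left of the dotted line) and 10 tested basement membrane genes (right) in SCM and Wnt5a against complete media and in Wnt5a + anti-Ptk7 against QCM. Filled circles passed the threshold, and Itga7, under 0.5 CPM, has the widest error bars. Itgb4, Agrn and Col18a1 are filled in all 3 comparisons, and Smoc2 is filled below 0 in SCM and Wnt5a. Without 1 library Agrn in Wnt5a + anti-Ptk7 against QCM was at 0.53 and under the fold limit.

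Of the receptors through which netrins act, Neo1, Unc5a and Unc5b were detected and Dcc, Unc5c, Unc5d and Dscam were not. None of the 3 was called in any comparison, and in SCM Neo1, named after its value was seen, was at −0.46 with an adjusted p of 0.0196 (edgeR) and under the fold limit. The other netrins Ntn1, Ntn5, Ntng1 and Ntng2 were not detected, so Ntn4 was the 1 netrin of 5 measured here that organoids expressed above 0.5 CPM. Ptk7 itself, the target of the antibody, had a mean of 11.7 CPM in complete media, 12.99 in SCM + IgG and 20.2 in Wnt5a + IgG, and rose by 0.79 ± 0.25 in Wnt5a (adjusted p = 0.0216, edgeR's quasi-likelihood test). Without complete media + IgG replicate 4 or Wnt5a + IgG replicate 1 the value was 0.72 or 0.67 and the adjusted p 0.0549 or 0.0766. With anti-Ptk7 its mean was 10.3 CPM in SCM and 19.6 CPM in Wnt5a.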

How the data were processed

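RNA of 36 organoid cultures had been reverse transcribed and amplified with a full-length kit and made into transposase-cut libraries. Reads were aligned by the authors to the mouse genome (mm10) with GSNAP, and per their methods those within coding sequences were counted. The authors deposited whole-number counts per gene without normalization. No strand setting or gene annotation is given in the sources used here. The series also has 1 table that repeats these counts and was not used.

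Libraries were grouped by their labels. Names, positions and coding lengths came from GENCODE on GRCm38, and no row under the identifier of Ntn3 was analysed. Counts were fitted in R 4.3.3 with edgeR 4.0.16: filterByExpr, TMM scaling (factors 0.908 to 1.025), 1 model of 6 group means, and the quasi-likelihood test with Benjamini-Hochberg adjustment over 15497 genes. A gene was called when its fold change exceeded 1.5 and its adjusted p lay below 0.05. The SE is the log2 fold change over the root of F, and 95% intervals use t with 30 residual degrees of freedom. CPM used TMM-scaled library sizes and log2 CPM a prior count of 2. Low levels are limited by counting error, and Lamb1 by 0 to 52 counts a library. Replicate pairs differed by a chi-square per gene of 7.25 to 83.0 over 90 pairs, so no pair was taken as the same library.

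The members and lists were chosen with earlier results of these data known. From the lists a gene was named if called, not detected, or a laminin or netrin; similar genes were the 5 highest by Pearson correlation. Some genes these rules cover are not reported here. Tests of Ntn4 against QCM were planned and left out, because the gene was chosen from these libraries. Wnt5a against SCM and the fits without libraries numbered 1 were chosen after seeing the data. Alternatives were DESeq2 1.42.0, voom with limma 3.58.1 (with quantile normalization, the method stated by the study, and with TMM), upper-quartile and library-size scaling, 2 other filters, other fold limits, glmTreat, a replicate block, only the groups compared, and each library left out. The fit was tested on simulated data before use.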

Additional observations from a re-analysis of the deposited data

Results flagged for a closer look

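In each group of 6 libraries and for each of 7 detected members, 42 pairs in all, the highest and the lowest library were checked for a gap to the nearest other library above 0.625 of the group's range (Dixon). By chance this picks out about 1 in 20 groups, and 5 of the 42 met this. Ntn4 was at 9.9128 CPM in Wnt5a + anti-Ptk7 replicate 2, the highest of its group. Lama5 was at 10.3316 CPM in QCM + IgG replicate 1, the highest of its group, and without it Lama5 in QCM lay at −0.033 against complete media in place of 0.39. Lamb3 was at 126.737 CPM in QCM + IgG replicate 5, the lowest of its group. In SCM + IgG replicate 5, Lamb3 was at 337.914 CPM and Lamc1 at 98.1556 CPM, each the highest of its group. Of these 5 values 1 was in a library numbered 1. No difference of the antibody effect between SCM and Wnt5a passed its test for a laminin member.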

How the results depend on the processing

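With complete media as the control, the laminin members called were 4 in SCM and 5 in Wnt5a, and 2 in SCM with a fold change over 2 and 1 with glmTreat. In Wnt5a 4 were called, without Lamb2, with glmTreat, at least 10 counts in every library or without the libraries numbered 1. In QCM 1, Lama3, was called with DESeq2, the replicate block, only the groups compared, or without the libraries numbered 1, against 0. SCM against QCM gave 1, but 2 with the replicate block or only the groups compared, 0 with glmTreat, 3 without the libraries numbered 1, and 0 to 2 without single libraries. SCM + anti-Ptk7 against QCM gave 1, but 2 with DESeq2, 0 with voom and TMM or glmTreat, and 0 to 2 without single libraries. Wnt5a + anti-Ptk7 against QCM gave 4, but 2 with glmTreat and 3 to 4 without single libraries. Lamc1, at 0.71, was lost there in 3 of 13 alternatives, among them a fold change over 2. Wnt5a against SCM gave 1, but 2 with the replicate block (Lama3 added), 0 with a fold change over 2, glmTreat, only the groups compared or without the libraries numbered 1, and 0 to 1 without single libraries. Of the 20 genes most like a member, 5 were kept with Spearman's rho, 4 with deviations from group means and 18 with a prior count of 0.5. No gene of the Ntn4 list was kept with Spearman's rho or with the deviations. The causes were not tested.

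The replicate numbers were not taken as pairs, since no label ties a number to a mouse, and whether they mark the mice was not settled. Same-numbered libraries correlated at 0.092 on average in their deviations from the group means, and others at −0.018. Of 90 same-numbered pairs 34 were over 0.1. Of 36 libraries 16 correlated best with their own number, which is 1 of 6 numbers to choose from. With the replicate block, 1 chain (Lama5, −1.004, adjusted p = 0.0472) was called lower with anti-Ptk7 in SCM, against 0, and the genes called over the whole table went from 58 to 178 in QCM, 140 to 496 in SCM against QCM and 107 to 259 in Wnt5a against SCM. With glmTreat those 3 counts were 2, 4 and 1.

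Directions reversed for values that passed no test, the widest of them those of Lamb1, which rests on few counts. For anti-Ptk7 in SCM, Lamb1 was at −1.06 and −1.50 (voom, quantile or TMM), −0.24 (replicate block) and −0.59 (without the libraries numbered 1) against 0.22, and Lamb2 at −0.21, −0.23 (voom) and −0.049 (without number 1) against 0.10. For anti-Ptk7 in Wnt5a, Ntn4 was at 0.019, 0.033 (voom) and 0.058 (block) against −0.02. Lamb1 in Wnt5a against SCM was at −0.64, −0.72 (voom) and −0.057 (without number 1) against 0.85, and its antibody interaction at 2.75, 3.46 (voom), 1.01 (block) and 1.22 (without number 1) against −0.07. Without number 1, Lamb2 was at 0.087 in SCM and 0.038 in SCM + anti-Ptk7 against QCM, and the Lamc1 interaction at 0.13.

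Leaving out single libraries also reversed values. Against complete media, Lama5 in QCM ran from −0.033 to 0.58. For anti-Ptk7 in SCM, Lamb1 ran from −0.47 to 0.49, Lamb2 from −0.33 to 0.33 and Lamb3 from −0.15 to 0.032. For anti-Ptk7 in Wnt5a, Ntn4 ran from −0.30 to 0.19, Lama3 from −0.31 to 0.65, Lamb1 from −0.12 to 0.91, Lamb3 from −0.19 to 0.30 and Lamc1 from −0.38 to 0.078. Against QCM, SCM + anti-Ptk7 ran from −0.057 to 0.52 for Lama5 and −0.52 to 0.13 for Lamb2, and Lama5 in Wnt5a against SCM from −0.19 to 0.27. The interactions ran from −0.11 to 1.01 for Lama3, −0.17 to 0.38 for Lama5, −0.35 to 0.68 for Lamb1, −0.12 to 0.38 for Lamb3 and −0.26 to 0.21 for Lamc1. Lamb1 and the Ntn4 level of SCM + IgG replicate 1 rest on few counts of the gene. That library held 15628855 counts in all, above the median of 13490071.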
